A study of Mus musculus with 9 samples.

Results

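The genes described here encode proteins that bind, reduce, carry, take up, release or recover iron, and they were followed in RNA of the whole mouse oviduct. They were chosen by name, with earlier results of these data known: 10 gene symbols were listed (Ltf, Lcn2, Steap4, Steap3, Trf, Tfrc, Cp, Hp, Hmox1 and Slc40a1). Each was found on exactly 1 of the 28214 probe sets of the array, so that 10 probe sets of 28214 are described. The series holds 9 Affymetrix gene arrays of CD1 female mice, 3 each from mature females in diestrus, mature females in estrus and sexually immature females of day 21. The age of the mature females is not given in the labels. No animal of any group was hormonally stimulated, and each array carried RNA of oviducts pooled from 5 animals, so p-values measure the spread between pools. Values are log2 intensities after robust multi-array averaging (RMA), which sets no common scale between probe sets. Differences are therefore taken for the same gene across groups. A position above or below an array's median is only a rough guide and does not show that a transcript is present or absent.

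Iron moves between tissues bound to transferrin (Trf), enters cells through the transferrin receptor (Tfrc), and is reduced in the endosome by metalloreductases of the STEAP family such as Steap3. It leaves cells through ferroportin (Slc40a1), after which ferroxidases such as ceruloplasmin (Cp) oxidise it so that transferrin can bind it. Mucosal surfaces also withhold iron from microbes: lactoferrin (Ltf) binds the metal directly, and lipocalin 2 (Lcn2) binds the siderophores with which bacteria collect it. In the rodent reproductive tract lactoferrin is a well-known estrogen-induced secretory protein of the epithelium, and Lcn2 and Steap4 are known in other tissues as genes of inflammation and the acute phase. In RNA of a whole organ, fewer cells of a type and less RNA per cell cannot be told apart.

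In diestrus, Steap4 rose to 1.94 times its immature intensity and Trf to 1.49 times its estrus intensity. These were the only calls among the 10 genes in the 3 pairwise comparisons, a call being an adjusted p under 0.05 over all 28214 probe sets. Of all probe sets, 0.294% were called higher in diestrus minus immature and 0.0673% in diestrus minus estrus. With each array left out in turn, the Steap4 call held in 6 of 9 fits and the Trf call in 1. Ltf and Lcn2 averaged 1.72 and 1.63 times their immature intensity in diestrus and did not pass (adjusted p = 0.0837 and 0.0832). For each, all diestrus arrays lay above all immature arrays, as for 7.52% of all probe sets. The uptake receptor Tfrc, the ferroxidase Cp and the haemoglobin binder Hp had differences of at most 0.23 on the log2 scale in any pairwise comparison, none of which passed.

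The promoters of Steap4, Ltf and Lcn2 are shown because these genes had the largest differences between diestrus and immature oviduct among the 10. Each is the 250 bases before an annotated transcription start, read 5′ to 3′ on the strand of the gene, from RefSeq sequence of build GRCm38.p6. The Steap4 promoter lies on the plus strand at chr5:7960222-7960471, that of Ltf on the plus strand at chr9:111019042-111019291 and that of Lcn2 on the minus strand at chr2:32387740-32387989. Capitals mark matches, on either strand, to the motifs named below.
Steap4: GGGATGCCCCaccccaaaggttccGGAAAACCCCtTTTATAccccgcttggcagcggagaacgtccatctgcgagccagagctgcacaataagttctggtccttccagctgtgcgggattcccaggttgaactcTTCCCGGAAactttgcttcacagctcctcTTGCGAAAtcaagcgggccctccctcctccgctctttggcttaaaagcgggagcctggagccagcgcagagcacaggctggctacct
Ltf: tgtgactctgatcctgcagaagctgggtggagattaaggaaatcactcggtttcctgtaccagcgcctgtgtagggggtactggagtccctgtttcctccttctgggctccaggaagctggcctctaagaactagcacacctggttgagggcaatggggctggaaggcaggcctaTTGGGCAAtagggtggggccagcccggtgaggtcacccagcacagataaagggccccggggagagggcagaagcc
Lcn2: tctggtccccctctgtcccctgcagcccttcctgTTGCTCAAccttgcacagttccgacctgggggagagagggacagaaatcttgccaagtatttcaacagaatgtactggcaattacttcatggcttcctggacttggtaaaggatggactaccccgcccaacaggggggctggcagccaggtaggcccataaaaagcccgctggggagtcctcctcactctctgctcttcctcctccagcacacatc

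Both strands were searched for 8 motifs: the consensus estrogen response element, the consensus progesterone and glucocorticoid response element, the consensus NF-kB site, a C/EBP site TTGCNNAA, a STAT site TTCNNNGAA, the hypoxia response core ACGTG, the antioxidant response core TGACNNNGC and the TATA box TATAAA. All 3 promoters held a C/EBP match, which 9.56% of all 32851 promoter entries of this length also hold: TTGCGAAA at -87 to -80 of Steap4, TTGGGCAA at -75 to -68 of Ltf and TTGCTCAA at -216 to -209 of Lcn2. The Steap4 promoter also held a pair of NF-kB matches, GGGATGCCCC at -250 to -241 and GGAAAACCCC at -226 to -217, a motif found in 7.25% of entries. A STAT match, TTCCCGGAA, lay at -116 to -108 of Steap4 (7.02% of entries), and a match to the TATA letters on the other strand, TTTATA, lay at -215 to -210 (12.4% of entries). None of the matches in these 3 sequences overlapped another. The estrogen response element (0.0396% of entries) and the progesterone and glucocorticoid element (0.14%) were in none of the 3 windows. A match is a description of letters, and no match says only that they are not in this window. Of the 10 genes, 6 had promoter entries, 11 in all. The C/EBP match TTTTGCAA also lay at -223 to -216 of a Steap3 entry and at -70 to -63 of a Cp entry. That Steap3 entry held an NF-kB match too, GGGGAATCCC at -176 to -167. The remaining entries of Steap3 and Cp, and those of Tfrc, held neither motif. C/EBP and NF-kB matches were thus not confined to the genes with the largest differences.

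Whole-series measures set the ground for these values. Array medians lay between 8.85 and 8.90, arrays of 1 group correlated across probe sets at 0.992 to 0.996, and arrays of different groups at 0.990 to 0.995. Markers of the labelled tissue averaged above the array median on every array. The mean over 6 ciliated cell genes lay between 11.46 and 11.89, and that over 6 oviduct secretory cell genes between 11.07 and 11.30. Of the secretory list Ovgp1 was not measured, and 1 of the 6 measured genes lay below the median on all arrays. Some arrays stood apart in markers of neighbouring tissue. The mean over 8 ovarian genes was 9.58 on diestrus 2 and 9.13 on immature 2, against 8.02 to 8.59 on the other 7. The mean over 6 smooth muscle genes was 12.50 on diestrus 3, against 11.62 to 11.92 elsewhere, and that over 7 fat cell genes was 9.02 and 8.77 on immature 1 and 2 and 8.25 to 8.49 on the rest. Dividing cell markers moved with maturity: the mean over 5 measured genes was 8.68 to 9.5 in diestrus, 8.63 to 9.22 in estrus and 9.74 to 9.87 in immature oviduct. All 5 were lower in both mature stages, with median differences of -0.88 in diestrus and -0.90 in estrus. Each had an unadjusted limma p under 0.05, as did 13.4% and 6.52% of all probe sets in either direction. None passed (lowest adjusted p = 0.066 and 0.142). Several differences of the 10 genes are also given below without the arrays that stood apart. Residual spread had a median SD of 0.0957 per probe set.

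**Figure D1:**
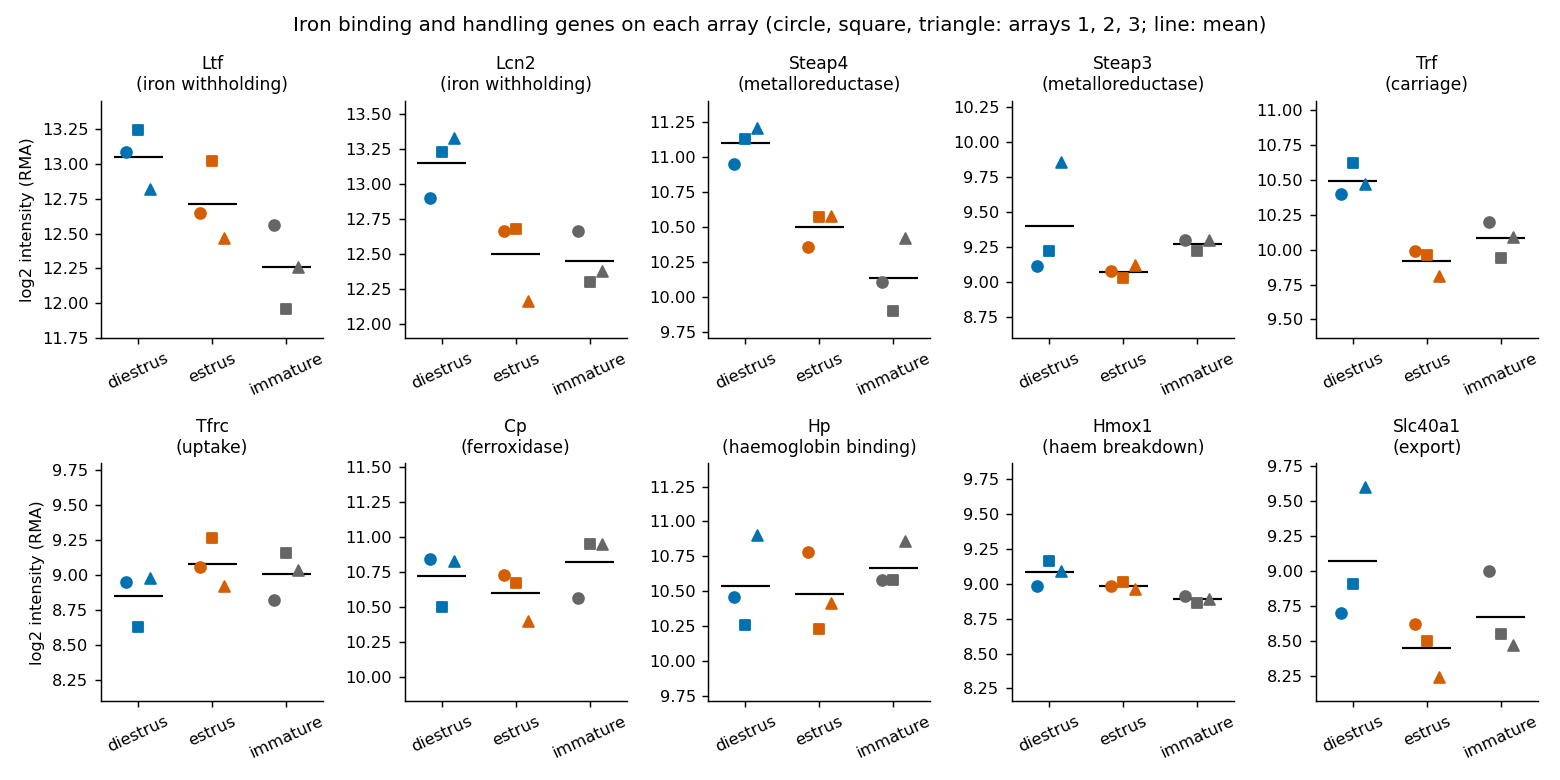
Log2 intensity (RMA, vertical axis, with the same span but its own offset in each panel) of the 10 genes on the 9 arrays, with diestrus, estrus and immature groups along the horizontal axis. Circles, squares and triangles are arrays 1, 2 and 3 of a group and lines are group means. For Ltf, Lcn2, Steap4, Trf and Hmox1 all 3 diestrus arrays lie above all 3 immature arrays, and for Steap3 and Slc40a1 the array diestrus 3 is the highest of the 9.

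The iron-withholding proteins come first. The Ltf probe set read 13.08, 13.24 and 12.82 on the diestrus arrays, 12.65, 13.02 and 12.47 on the estrus arrays and 12.56, 11.96 and 12.26 on the immature arrays. The group means were 13.05 ± 0.21, 12.71 ± 0.28 and 12.26 ± 0.30 (SD, n = 3 each), so the order was diestrus, estrus, immature. Every diestrus array lay above every immature array, whereas estrus overlapped both other groups. The difference between diestrus and immature oviduct was 0.79 ± 0.18 (SE; 95% interval 0.39 to 1.19; limma adjusted p = 0.0837). Estrus minus immature was 0.45 ± 0.18 (0.05 to 0.85; adjusted p = 0.695) and diestrus minus estrus 0.34 ± 0.18 (-0.06 to 0.73; adjusted p = 0.648). Neighbours in the order of the groups were therefore not shown to differ. Without immature 2 and diestrus 2, which were the lowest and the highest Ltf arrays as well as those with the highest ovarian markers, diestrus minus immature was 0.54 (adjusted p = 0.449).

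Lcn2, the siderophore-binding lipocalin, separated the groups in another way. Its values were 12.90, 13.23 and 13.33 in diestrus, 12.66, 12.68 and 12.16 in estrus and 12.66, 12.30 and 12.38 in immature oviduct. The means were 13.15 ± 0.22, 12.50 ± 0.29 and 12.45 ± 0.19 (SD, n = 3 each). The diestrus arrays lay above all 6 others, and the estrus and immature arrays overlapped. Diestrus minus immature was 0.71 ± 0.16 (0.35 to 1.07; adjusted p = 0.0832), and diestrus minus estrus was 0.65 ± 0.16 (0.29 to 1.01; adjusted p = 0.177), a ratio of 1.57. Estrus minus immature was 0.06 ± 0.16, with an interval of -0.30 to 0.42. None of the 3 differences passed over all probe sets. Without immature 2, diestrus 2 and diestrus 3, the arrays with high ovarian or smooth muscle markers, diestrus minus immature was 0.39 (adjusted p = 0.678), with 1 diestrus array left.

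Lcn2 and Ltf are also stored in the granules of neutrophils, so the other 13 genes of a neutrophil list were set beside them. Of these, 12 were measured and 11 lay below the array's median on every array, among them S100a8, Ngp, Elane and Ly6g. The mean over the 12 ranged from 7.75 to 8.0 in diestrus, from 7.69 to 7.95 in estrus and from 7.71 to 7.73 in immature oviduct. In diestrus minus immature 10 of the 12 means were higher and 2 lower, with a median of 0.10, against 0.01 over all probe sets. None of the 12 passed in any comparison, where at most 1% of all probe sets did in a pairwise one. In diestrus minus immature 2, both higher, had an unadjusted limma p under 0.05. This compares with 4.44% of all probe sets in that direction and 13.4% in either. The exception in level was Mmp8, the neutrophil collagenase, which read 9.79, 9.54 and 9.72 in diestrus, 9.33, 9.38 and 9.13 in estrus and 9.31, 9.19 and 9.40 in immature oviduct. Its diestrus values lay above all others, with a difference of 0.38 ± 0.09 from immature (adjusted p = 0.0971) and of 0.41 ± 0.09 from estrus (adjusted p = 0.140). Retnlg differed by 0.57 between diestrus and immature oviduct (adjusted p = 0.171) while lying below the median on all 9 arrays.

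Among the metalloreductases, Steap4, which reduces iron and copper at the cell surface and in endosomes, had the largest difference between diestrus and immature oviduct of the 10 genes. The diestrus arrays read 10.95, 11.13 and 11.21, the estrus arrays 10.36, 10.57 and 10.58 and the immature arrays 10.11, 9.90 and 10.42. The means were 11.10 ± 0.13, 10.50 ± 0.12 and 10.14 ± 0.26 (SD, n = 3 each). All diestrus arrays lay above all others, and the estrus and immature arrays overlapped, with immature 3 above estrus 1. Steap4 rose by 0.95 ± 0.13 in diestrus relative to immature oviduct (0.67 to 1.24; limma adjusted p = 0.0144). Diestrus minus estrus was 0.59 ± 0.13 (0.31 to 0.88; adjusted p = 0.125), and estrus minus immature was 0.36 ± 0.13 (0.07 to 0.64; adjusted p = 0.615).

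Taken as a mean, the mature stages exceeded immature oviduct by 0.66 ± 0.11 for Steap4 (0.41 to 0.90; adjusted p = 0.0422), a ratio of 1.58, and 17 of 18 pairs of a mature and an immature array went that way. The call in diestrus was lost when immature 1 was left out (0.94, adjusted p = 0.0592), when immature 2 was left out (0.83, adjusted p = 0.0528) and when diestrus 2 was left out (0.94, adjusted p = 0.058), and it held in the other 6 such fits. Without immature 2 and diestrus 2 together, the arrays with the highest ovarian markers, the difference was 0.82 (adjusted p = 0.164). Without immature 1 and 2, those with the highest fat cell markers, it was 0.67 (adjusted p = 0.226). The call for both mature stages held without immature 3 and without diestrus 3, and was lost when any of the other 7 arrays was left out (0.53 to 0.69, adjusted p = 0.06 to 0.17). It was also lost without immature 2 and diestrus 2 (0.53, adjusted p = 0.333) and without immature 1 and 2 (0.38, adjusted p = 0.42). Dividing cell markers differ between the same groups, as given above, and their part in the difference of Steap4 was not tested.

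Steap3, the reductase of the transferrin cycle, read 9.11, 9.22 and 9.86 in diestrus, 9.08, 9.03 and 9.12 in estrus and 9.30, 9.22 and 9.30 in immature oviduct. Its high diestrus mean, 9.40 ± 0.41 (SD, n = 3), rested on diestrus 3. The difference between diestrus and immature oviduct was 0.13 ± 0.16 (adjusted p = 0.80) and became -0.11 without that array (adjusted p = 0.511). Diestrus minus estrus was 0.32 ± 0.16 (adjusted p = 0.603), and 0.09 without it. The estrus arrays lay below all immature arrays, with a difference of -0.20 ± 0.16 (-0.56 to 0.16; adjusted p = 0.858). No stage difference of Steap3 was detectable with these arrays.

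Trf, which encodes transferrin, the iron carrier of plasma, read 10.40, 10.62 and 10.47 in diestrus, 9.99, 9.96 and 9.81 in estrus and 10.20, 9.94 and 10.09 in immature oviduct. The means were 10.49 ± 0.12, 9.92 ± 0.10 and 10.08 ± 0.13 (SD, n = 3 each). The means ran in the order diestrus, immature, estrus, and the diestrus arrays lay above all others while estrus and immature arrays overlapped. Trf rose by 0.57 ± 0.09 in diestrus relative to estrus (0.38 to 0.77; limma adjusted p = 0.0452), the call closest to the threshold. Diestrus minus immature was 0.42 ± 0.09 (0.22 to 0.61; adjusted p = 0.0643), a ratio of 1.33, and estrus minus immature was -0.16 ± 0.09 (-0.35 to 0.04; adjusted p = 0.825). Without immature 2 and diestrus 2, diestrus minus immature was 0.29 (adjusted p = 0.41).

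The Trf call was lost with median centring of all arrays (adjusted p = 0.0613) and in a fit of the diestrus and estrus arrays alone (adjusted p = 0.109). It was also lost with the replicate number as a block (adjusted p = 0.105). It held only in 1 of the 9 fits that leave out an array, that without immature 1 (adjusted p = 0.0454). In the other 8 the difference was 0.51 to 0.62 and the adjusted p 0.0562 to 0.194, highest without diestrus 2. Without immature 2 and diestrus 2 together, the arrays with the highest ovarian markers, it was 0.51 (adjusted p = 0.296). The size of the difference moved little over these fits, whereas the call depended on which arrays entered.

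**Figure D2:**
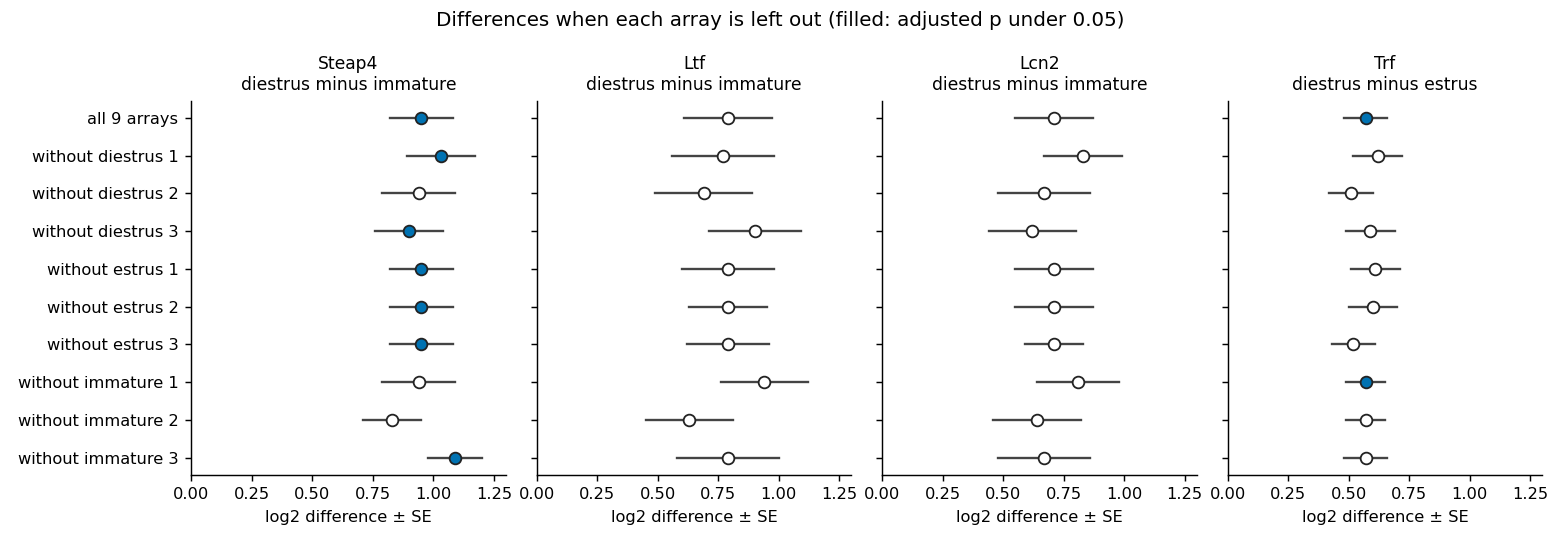
Log2 differences (horizontal axis) with standard errors for Steap4, Ltf and Lcn2 in diestrus minus immature and for Trf in diestrus minus estrus, with all 9 arrays and with each array left out in turn (rows). Filled points have an adjusted p under 0.05: 6 of the 9 for Steap4, 1 of the 9 for Trf and none for Ltf and Lcn2, whose differences stay between 0.63 and 0.94 and between 0.62 and 0.83.

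Tfrc, the receptor that takes up transferrin and whose transcript is known to be stabilised when cells lack iron, read 8.95, 8.63 and 8.98 in diestrus, 9.06, 9.27 and 8.92 in estrus and 8.82, 9.16 and 9.04 in immature oviduct. All 3 groups overlapped. The diestrus mean differed from the immature mean by -0.15 ± 0.13 (-0.43 to 0.13; adjusted p = 0.669), diestrus minus estrus -0.23 ± 0.13 (-0.51 to 0.05; adjusted p = 0.673) and estrus minus immature 0.08 (-0.21 to 0.36; adjusted p = 0.92). Tfrc was the only 1 of the 10 genes with a lower mean in diestrus than in estrus. The intervals leave room for differences of up to 0.51 on the log2 scale, and Tfrc lay below the array's median on 2 arrays.

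Slc40a1, ferroportin, the iron exporter of cells such as macrophages and enterocytes, read 8.70, 8.91 and 9.60 in diestrus, 8.62, 8.50 and 8.24 in estrus and 9.00, 8.55 and 8.47 in immature oviduct. Every diestrus array lay above every estrus array, but the value of diestrus 3 stood far above the other two. Diestrus minus estrus was 0.62 ± 0.22 (0.12 to 1.12; adjusted p = 0.382), and 0.36 without diestrus 3 (adjusted p = 0.525). Diestrus minus immature was 0.40 ± 0.22 (-0.10 to 0.90; adjusted p = 0.492), and 0.14 without it (adjusted p = 0.791). Slc40a1 lay below the array's median on 6 of 9 arrays.

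Markers of macrophages were also high on diestrus 3. The mean over 12 macrophage genes was 8.71, 8.79 and 9.12 on the diestrus arrays, 8.65 to 8.70 on the estrus arrays and 8.63 to 8.85 on the immature arrays. Adgre1, a surface marker of tissue macrophages, read 9.66 on diestrus 3 and at most 8.85 on any other array, and Lyz2 read 11.46 there. In diestrus minus immature 10 of the 12 means were higher and 2 lower, with a median of 0.09, and 3, all higher, had an unadjusted limma p under 0.05, against 4.44% of all probe sets in that direction. None of the 12 passed in any comparison, where at most 1% of all probe sets did in a pairwise one. Of the 12, 4 lay below the array's median on all arrays, among them Cd163. Smooth muscle markers were highest on the same array. The part of either cell type in the values of Slc40a1 and Steap3 was not tested.

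**Figure D3:**
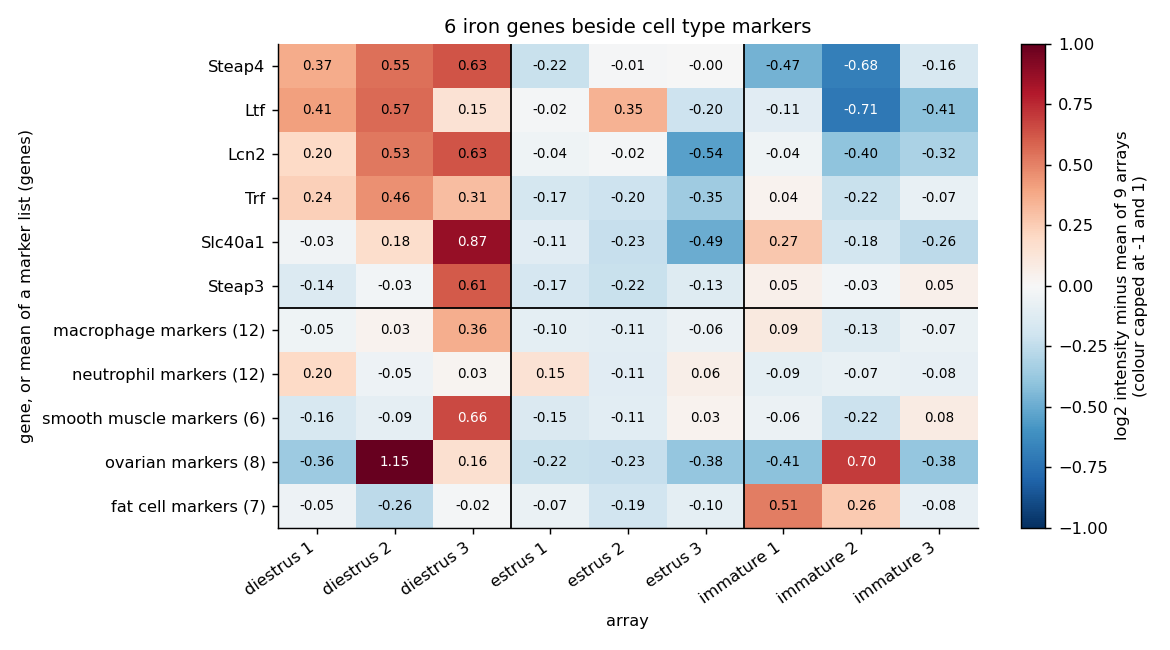
Each cell gives a log2 intensity minus the mean of the 9 arrays, for Steap4, Ltf, Lcn2, Trf, Slc40a1 and Steap3 and for the mean of 5 marker lists (rows; number of genes in brackets) on each array (columns, diestrus, estrus and immature). The array diestrus 3 is highest for Slc40a1 (0.87), Steap3 (0.61), smooth muscle markers (0.66) and macrophage markers (0.36), whereas ovarian markers are highest on diestrus 2 (1.15) and immature 2 (0.70).

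Cp, the multicopper ferroxidase that loads iron onto transferrin, read 10.84, 10.50 and 10.83 in diestrus, 10.73, 10.67 and 10.40 in estrus and 10.56, 10.95 and 10.95 in immature oviduct. The groups overlapped, and the immature mean was the highest, at 10.82 ± 0.23 (SD, n = 3). Diestrus minus immature was -0.10 ± 0.14 (-0.40 to 0.21; adjusted p = 0.819) and estrus minus immature -0.22 ± 0.14 (-0.53 to 0.08; adjusted p = 0.843).

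Hp, haptoglobin, which captures free haemoglobin, read 10.46, 10.26 and 10.90 in diestrus, 10.78, 10.23 and 10.42 in estrus and 10.58, 10.58 and 10.86 in immature oviduct. The groups overlapped, and array values within diestrus spanned more than any difference between means. The diestrus mean differed from the immature mean by -0.13 ± 0.18 (-0.53 to 0.26; adjusted p = 0.808) and estrus minus immature -0.19 ± 0.18 (-0.59 to 0.20; adjusted p = 0.867). Cp and Hp are, like Lcn2, classical acute phase genes of the liver. In these arrays their diestrus minus immature differences were below 0 and that of Lcn2 above it, but the intervals of Cp and Hp span 0. The sign changed in 3 settings for Cp and in 1 for Hp, and the difference between genes was not tested.

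Hmox1, haem oxygenase 1, which frees iron from haem, had the smallest spread of the 10. It read 8.98, 9.16 and 9.09 in diestrus, 8.98, 9.01 and 8.96 in estrus and 8.91, 8.86 and 8.89 in immature oviduct. All 6 mature arrays lay above all 3 immature arrays. The means were 9.08 ± 0.09, 8.98 ± 0.03 and 8.89 ± 0.02 (SD, n = 3 each). Diestrus minus immature was 0.19 ± 0.06 (0.06 to 0.32; adjusted p = 0.182), a ratio of 1.14, and both mature stages minus immature was 0.14 ± 0.05 (0.03 to 0.26; adjusted p = 0.359). Values near the array's median with ratios this close to 1 did not pass over all probe sets.

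Counted together, 7 of the 10 genes had a higher and 3 a lower mean in diestrus than in immature oviduct, with a median difference of 0.29, against 0.01 over all probe sets. Steap4 was called, where 0.294% of all probe sets were called higher in this comparison and 1% in either direction. An unadjusted limma p under 0.05 was reached by 5, all higher, against 4.44% of all probe sets. The same 5 (Ltf, Lcn2, Steap4, Trf and Hmox1) had no overlap between groups, against 7.52% of all probe sets with diestrus above immature. Because the genes were chosen with earlier results of these data known, these shares do not test whether iron genes stand out.

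Between diestrus and estrus, 9 of the 10 means were higher in diestrus, with a median difference of 0.33, against -0.01 over all probe sets. Trf was called, where 0.0673% of all probe sets were called higher and 0.159% in either direction. No overlap was seen for 4 genes (Lcn2, Steap4, Trf and Slc40a1), against 4.93% of all probe sets. Between estrus and immature oviduct 5 means were higher and 5 lower, with a median of -0.05, and none of the 10 was called, where 0.0851% of all probe sets were. An unadjusted limma p under 0.05 was reached by 2 of them, Ltf and Steap4, against 2.25% of all probe sets in that direction. The fit with array weights called Steap4, and called 324 probe sets higher and 699 lower, against 9 and 15 without weights. Hmox1 lay above (3.19% of all probe sets) and Steap3 below (6.62%) without overlap. For both mature stages against immature oviduct, Steap4 was called, against 0.121% of all probe sets called higher, and Hmox1 lay above without overlap, against 1.4%. The comparisons share arrays, so their counts are not independent of each other, and the choice of the genes limits them as above.

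**Figure D4:**
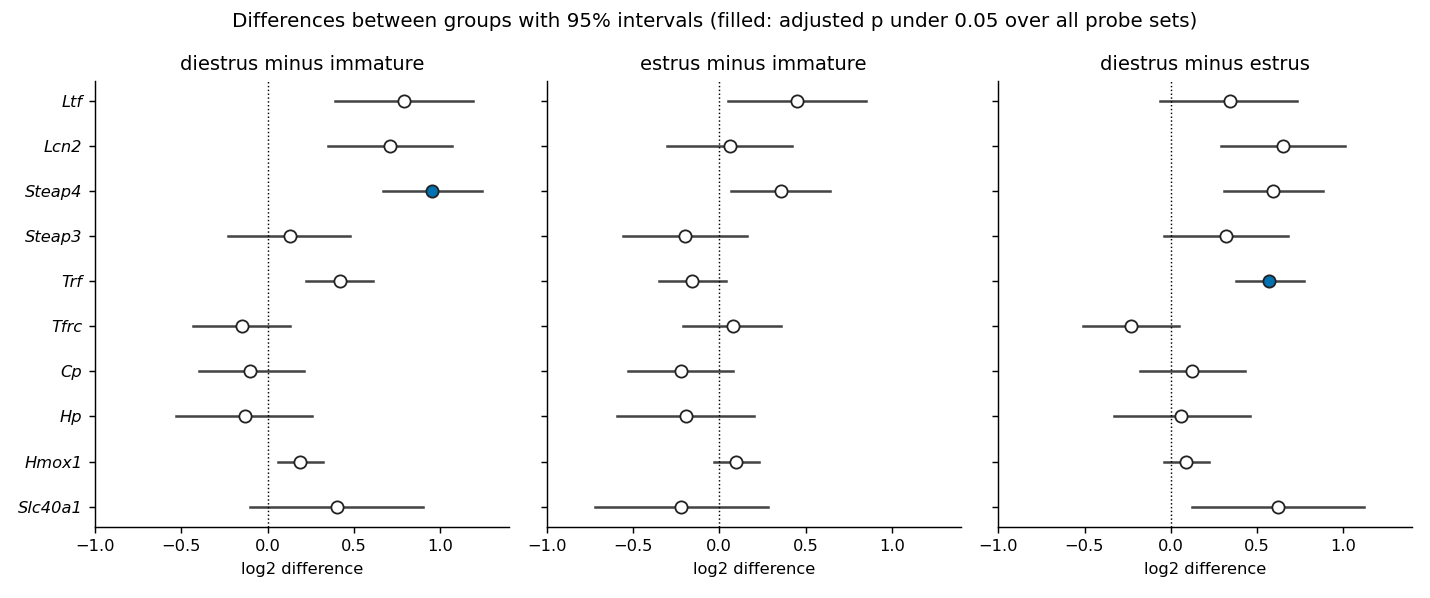
Log2 differences between groups (horizontal axis, points) with 95% intervals (bars) for the 10 genes (rows) in diestrus minus immature, estrus minus immature and diestrus minus estrus. Filled points have an adjusted p under 0.05 over all probe sets: Steap4 in diestrus minus immature (0.95) and Trf in diestrus minus estrus (0.57).

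The 9 arrays also show which of these genes varied together, given here as a description, since arrays of a group share a stage and genes on an array share its RNA. Over the 9 arrays Lcn2 and Trf correlated at 0.90 (Pearson), and at 0.79 after the group means were taken out. Steap3 and Slc40a1 correlated at 0.85, and at 0.80 within groups, and diestrus 3 was the highest array for both. Steap4 correlated at 0.79 with Ltf and 0.78 with Lcn2 over the arrays, and at 0.16 and 0.12 within groups, so pools of a group with more Steap4 RNA did not have more Ltf or Lcn2 RNA to a like degree. Tfrc and Cp correlated at 0.55, and at 0.88 within groups. Tfrc and Trf, receptor and ligand, correlated at -0.64, and at -0.48 within groups.

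For each of 4 genes, the 5 other genes most like it over the 9 arrays were taken by Pearson correlation among genes with a mean above the median of all probe sets. Nearest to Steap4 were Chia1, an acidic chitinase (0.951), the protein disulphide isomerase gene P4hb (0.942), the tissue factor gene F3 (0.942), the methyltransferase gene Inmt (0.931) and the carnosinase gene Cndp1 (0.925). Of these, Chia1 rose by 0.84 in diestrus relative to immature oviduct (limma adjusted p = 0.0329), Inmt by 1.44 (adjusted p = 0.0261) and Cndp1 by 0.68 (adjusted p = 0.00719). With each array left out in turn, the call held in all 9 fits for Cndp1, in 5 for Inmt and in 3 for Chia1. None of these calls held without immature 2 and diestrus 2, or without immature 1 and 2 (Cndp1 adjusted p = 0.0931 and 0.216). Genes picked for likeness to Steap4 on the same arrays tend to share its differences, so these calls are not separate support. Nearest to Ltf were Fetub (0.958), Nupr1 (0.956), the antitrypsin gene Serpina1c (0.951), Tbc1d22a (0.937) and Rnf39 (0.935). Serpina1c had the largest difference of these, 2.07 in diestrus minus immature, and did not pass (adjusted p = 0.0613).

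Nearest to Lcn2 were Klf11 (0.956), Plcg2 (0.946), Prkar1b (0.945), Ptgr1 (0.937) and Lyz2 (0.928), the lysozyme gene of the macrophage list. Lyz2 differed by 0.48 in diestrus minus immature (adjusted p = 0.23) and by 0.64 in diestrus minus estrus (adjusted p = 0.197), close in size to Lcn2 in the second of these. Nearest to Tfrc were Zfp397 (0.922), Tmx3 (0.917), Ssbp1 (0.909), Wdr33 (0.908) and Atad2b (0.908), whose differences in diestrus minus immature lay between -0.12 and -0.02 and did not pass. With 9 arrays and so many genes to choose among, high correlations arise easily, and these are descriptions.

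The rest of iron metabolism gives the surroundings of these genes. A list of 60 further iron genes covered storage and sensing, uptake, oxidation and hepcidin control, haem and mitochondrial iron, of which 56 were measured and 13 lay below the array's median on all arrays. None of the 56 was called in any comparison. Of all probe sets, 1% were called in diestrus minus immature, 0.0851% in estrus minus immature and 0.159% in diestrus minus estrus. At such shares a list of this size need hold no call, so the count does not show these genes unchanged. In diestrus minus immature, 29 means were higher and 27 lower, with a median of 0.00, and 8 had an unadjusted limma p under 0.05, where 13.4% of all probe sets did. In estrus minus immature there were 2 such genes, against 6.52%. In diestrus minus estrus there were 7 such genes, against 9.33%, with 28 means higher and 28 lower. The differences lay between -0.25 and 0.31 in diestrus minus immature, whereas those of Steap4, Ltf, Lcn2 and Trf were 0.42 or more. Both sets of genes were chosen with earlier results of these data known, so this contrast does not test whether these genes stand out. Slc40a1 (0.40) lay inside that range, which is that of all arrays, without diestrus 3, as given above. Trf lay inside it at 0.29 without immature 2 and diestrus 2. Steap4, Ltf and Lcn2 stayed above it in every setting, with lowest differences of 0.67, 0.54 and 0.39.

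Among storage and sensing genes, the ferritin heavy chain gene Fth1 had a difference of 0.16 in diestrus minus immature (adjusted p = 0.342). The ferritin light chain gene Ftl1 ranged from 9.32 to 9.70 in diestrus, from 9.32 to 9.97 in estrus and from 8.97 to 9.73 in immature oviduct. Ireb2, the iron regulatory protein that is degraded when iron is ample, read 10.35, 10.36 and 10.51 in diestrus, 10.55, 10.63 and 10.54 in estrus and 10.55, 10.77 and 10.62 in immature oviduct. Its diestrus arrays lay below all others, with a difference of -0.24 from immature (adjusted p = 0.176) and -0.17 from estrus (adjusted p = 0.514). Ncoa4, the receptor that brings ferritin to the lysosome, had a difference of 0.15 in diestrus minus immature (adjusted p = 0.743).

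Among uptake genes, the metal importer gene Slc39a8 read 9.82, 9.88 and 9.87 in diestrus, 9.93, 10.36 and 10.46 in estrus and 9.99, 9.67 and 9.88 in immature oviduct. All estrus arrays lay above all diestrus arrays, at a difference of -0.39 for diestrus minus estrus (adjusted p = 0.33). Snx3, a sorting protein that recycles the transferrin receptor, differed by -0.25 in diestrus minus immature (adjusted p = 0.254), and Scara5, a ferritin receptor, by 0.20 (adjusted p = 0.191). Lrp2 (megalin) and Slc22a17, both described as receptors for lipocalin 2, differed by 0.31 (adjusted p = 0.739) and by -0.08 (adjusted p = 0.707). The Lrp2 arrays overlapped widely, from 8.90 to 10.23 in diestrus, from 9.51 to 10.14 in estrus and from 9.09 to 9.72 in immature oviduct.

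Among haem genes, Lrp1, the receptor for haem bound to haemopexin, read 10.68, 10.73 and 11.05 in diestrus, 10.46, 10.53 and 10.40 in estrus and 10.60, 10.60 and 10.58 in immature oviduct. The 3 groups did not overlap, and diestrus minus estrus was 0.36 (adjusted p = 0.192), or 0.24 without diestrus 3 (adjusted p = 0.147). Uros, a haem synthesis enzyme, had 9.13, 9.13 and 9.12 in diestrus, below all other arrays, with a difference of -0.16 from immature (adjusted p = 0.16), the lowest adjusted p of the list in that comparison. Hamp, the gene of the hormone hepcidin that brings about the breakdown of ferroportin, and Alas2, the erythroid haem synthesis enzyme, lay below the median on all arrays.

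**Figure D5:**
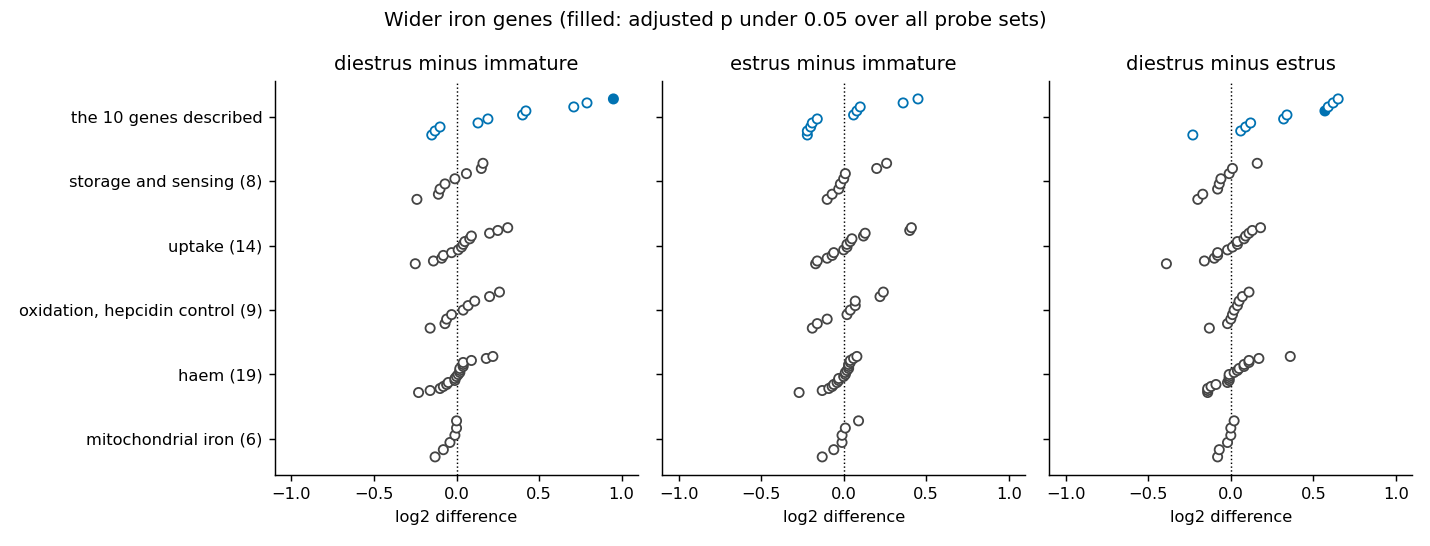
Log2 differences (horizontal axis, 1 point per gene) of the 10 genes described (top row) and of the measured genes of 5 further groups of iron genes (rows, number of genes in brackets) in the 3 pairwise comparisons. Filled points have an adjusted p under 0.05; none of the 56 further genes is filled, and in diestrus minus immature they lie between -0.25 and 0.31.

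A pair of regulatory programmes known to act on some of the 10 genes was read on its other members. Of 17 acute phase and NF-kB genes beside Steap4, Lcn2, Hp and Cp, 16 were measured and 10 lay below the median on all arrays. In diestrus minus immature 10 means were higher and 6 lower, with a median of 0.03. An unadjusted limma p under 0.05 was reached by 1 in each direction, where 13.4% of all probe sets did in either direction. The only call among them was of Nfkbia, the NF-kB inhibitor that NF-kB itself induces, which fell by 0.29 in diestrus relative to immature oviduct (limma adjusted p = 0.0442), where 0.705% of all probe sets were called lower. It read 11.14, 11.11 and 11.19 in diestrus, 11.43, 11.37 and 11.46 in estrus and 11.38, 11.46 and 11.49 in immature oviduct, so diestrus lay below all others. The call held in 2 of the 9 fits that leave out an array, those without estrus 2 and without diestrus 3 (adjusted p up to 0.169 in the rest). Saa3, the local serum amyloid A gene, differed by 0.19 (adjusted p = 0.507) at values below the median on all arrays.

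Of 14 NRF2 target genes beside Hmox1, 13 were measured. In diestrus minus immature 7 means were higher and 6 lower, with a median of 0.02, and 2 higher and 4 lower had an unadjusted limma p under 0.05, where 13.4% of all probe sets did in either direction. Gclc, the catalytic subunit of the enzyme that limits glutathione synthesis, was the only one called. It read 11.22, 11.33 and 11.19 in diestrus, 11.73, 11.65 and 11.80 in estrus and 11.67, 11.60 and 11.64 in immature oviduct. Gclc fell by 0.39 ± 0.06 in diestrus relative to immature oviduct (limma adjusted p = 0.0251) and by 0.48 ± 0.06 relative to estrus (adjusted p = 0.0229), where 0.0922% of all probe sets were called lower. With each array left out in turn, the call held in 4 of 9 fits relative to immature oviduct (adjusted p up to 0.0957) and in 3 of 9 relative to estrus (up to 0.0984). The cystine importer gene Slc7a11 also had its 3 lowest values in diestrus, with differences of -0.34 (adjusted p = 0.263) and -0.43 (adjusted p = 0.26), which did not pass.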

How the data were processed

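RNA of whole mouse oviduct was measured on 9 Affymetrix gene arrays, 3 each in diestrus, estrus and immature females. The authors deposited log2 values made with RMA in Affymetrix Expression Console, per the submitters' processing notes. Tool versions, and the genome build of the annotation, were not given in the sources used here. Concerning scale, the base of the logarithm was judged from the range of the values, 4.39 to 14.59. Precision is limited by the number of arrays, with a median SE of 0.076 for a difference between groups. All 28214 probe sets were kept, of which 21640 had 1 gene symbol in the platform's annotation, 1321 several and 5253 none. The 21640 covered 19937 genes, each represented by its brightest probe set. No column of per-sample values was left out.

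The 3 groups were fitted together with limma 3.58.1 (lmFit and eBayes, two-sided) under R 4.3.3 (6 residual degrees of freedom, 3.60 from the prior) and adjusted by Benjamini-Hochberg over all probe sets. All 10 genes are given whatever their result. Of the further lists, called genes were to be named, with up to 6 others by size and up to 4 by level, and the text takes a part of these; Cd163 was named after its values were seen. Members and lists were chosen with earlier results of these data known. Promoter sequences are RefSeq's, of build GRCm38.p6.

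Fits were repeated with a replicate block, after dropping dim probe sets or those without a single symbol, after renormalizing by quantiles, medians or cyclic loess, with an intensity trend plus robust prior, with array weights, on the compared arrays alone, with averaged probe sets per gene, and without each array. Stricter calls required 2-fold or an adjusted p under 0.01. The labels do not say what the replicate numbers mean, and a check of them did not settle whether they pair the arrays. On simulated data, 52 of 61 probe sets changed by 1.5-fold were called in diestrus minus immature and 61 of 63 at 2-fold, with 5 false calls over all sizes. The simulated noise was normal and independent between probe sets, and the changed probe sets were drawn at random. Ltf and Lcn2 had SEs of 0.18 and 0.16, above the median of 0.076, so these rates do not hold for such genes. Python 3.11.15 with pandas 2.3.3 made the tables, and matplotlib 3.10.9 the figures.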

Additional observations from a re-analysis of the deposited data

Results flagged for a closer look

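Trf was singled out because the effects of the mature stages relative to immature oviduct differed by a direct test. The difference from immature oviduct was 0.42 ± 0.09 in diestrus and -0.16 ± 0.09 in estrus (SE), and the difference between them, diestrus minus estrus, was 0.57 ± 0.09 (limma adjusted p = 0.0452). The call was lost in 8 of the 9 fits that leave out an array, with median centring (adjusted p = 0.0613) and with the diestrus and estrus arrays alone (adjusted p = 0.109). With the replicate number as a block it was lost as well (adjusted p = 0.105). All 3 diestrus arrays lay above all 3 estrus arrays. Both effects use the same immature arrays, and the direct comparison does not depend on their level.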

How the results depend on the processing

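With 1 member called in diestrus minus immature (Steap4), 1 in diestrus minus estrus (Trf), 1 for both mature stages (Steap4) and 0 in estrus minus immature, each count can move by a single gene. In diestrus minus immature the count was 2 (Steap4 and Trf) with the low-intensity filter, with quantile normalization again and with cyclic loess, and 4 with array weights (also Ltf and Lcn2). It was 0 with only the arrays compared (Steap4 adjusted p = 0.0645), at 2-fold and at an adjusted p under 0.01. In estrus minus immature, array weights called 1, Steap4. In diestrus minus estrus the count was 5 with array weights (Trf, Lcn2, Ltf, Slc40a1 and Steap4), and 0 with median centring (Trf adjusted p = 0.0613), with only the arrays compared (0.109), at 2-fold and at an adjusted p under 0.01. For both mature stages it was 0 with median centring (Steap4 adjusted p = 0.0573), at 2-fold and at an adjusted p under 0.01. Array weights called 1589 probe sets higher and 1742 lower in diestrus minus estrus, against 19 and 26 without them. The counts were 335 and 953 in diestrus minus immature, against 83 and 199, and 324 and 699 in estrus minus immature, against 9 and 15. The cause was not tested.

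With each array left out in turn, the count ranged from 0 to 1 in diestrus minus immature, in diestrus minus estrus and for both mature stages, and was 0 throughout in estrus minus immature. Leaving out immature 2 with diestrus 2, immature 1 with 2, or immature 2 with diestrus 2 and 3, each chosen after seeing the data, gave 0 calls in all 4 comparisons, with fewer arrays in each fit.

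With the replicate number as a block, the count was 1 in diestrus minus immature (Steap4 adjusted p = 0.0155), 0 in diestrus minus estrus (Trf 0.57, adjusted p = 0.105) and 1 for both mature stages (Steap4 adjusted p = 0.0462). The block left 13 calls over all probe sets in diestrus minus estrus. Arrays of the same number deviated from their group means with correlations of -0.294 to 0.169 over all pairs of groups. Between estrus and diestrus these were 0.1203, 0.1693 and 0.0645, and those of different numbers lay between -0.1254 and 0.007. With so few arrays, whether the numbers pair the arrays was not settled.

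The sign was kept in all settings by 5 of the 10 genes in diestrus minus immature (Ltf, Lcn2, Steap4, Trf and Hmox1), by 8 in estrus minus immature, by 8 in diestrus minus estrus and by 7 for both mature stages. The other signs, all of uncalled differences, changed in at least 1 setting. Scaling moved the median of all probe sets by less than 0.1.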
